A study of Mus musculus with 686 samples.

Results

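Mesenteric fat (MAT), the visceral adipose tissue that hangs in the mesentery beside the gut, the mesenteric lymph nodes and the pancreas, was profiled by small RNA sequencing in mice that came back alive from the International Space Station and in their controls on Earth. All 28 libraries whose labels name mesenteric fat and live animal return (LAR) were taken, out of 686 in the series, and each is from 1 mouse. The mice were female BALB/cAnNTac. Of the libraries, 9 were from spaceflight (FL) mice, 10 from habitat ground control (HGC) mice and 9 from vivarium ground control (VGC) mice. FL mice lived on the station and were collected in the days after splashdown. HGC mice lived on the ground in matched housing, carbon dioxide, temperature and humidity, and VGC mice lived in standard vivarium cages. Mold was found on the food bars of FL and HGC mice. All arms ate the NASA food bar. The mice were anaesthetised at collection, with gas by the labels and with ketamine and xylazine by the published methods. The arms held mice of 3 months (4 FL, 5 HGC, 5 VGC) and 8 months (5 FL, 5 HGC, 4 VGC). Libraries are named here by arm and mouse number, so FL 5 is flight mouse 5. The same number in another arm is another animal.

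Mature miRNAs are short RNAs that guide Argonaute proteins to messenger RNAs, mostly through the seed at bases 2 to 8. Many are made in a few cell types, so a tissue's miRNAs also report which cells it holds. miR-150-5p is abundant in mature B and T lymphocytes, together with miR-142a, miR-155, miR-342 and miR-146a of immune cells. miR-216a, miR-216b and miR-217 come from a gene cluster that is active in the acinar cells of the exocrine pancreas, miR-375 marks pancreatic islets and other neuroendocrine cells, and the miR-200 family with miR-141 and miR-429 marks epithelium. miR-378a lies in the Ppargc1b gene and is abundant in fat and other oxidative tissue. In bulk tissue, fewer cells of a type and less RNA per cell cannot be told apart.

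The 3 acinar miRNAs are shown first because miR-216a-5p had the widest spread within arms of the abundant miRNAs and the others were among the widest. Capitals mark the seed, sequences run 5′ to 3′, and sequences and positions are those of RefSeq on GRCm38.p6, whereas the reads were mapped to GRCm39.
mmu-miR-216a-5p: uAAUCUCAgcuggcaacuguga
mmu-miR-216b-5p: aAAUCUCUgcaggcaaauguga
mmu-miR-217-5p: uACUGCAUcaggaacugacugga
All 3 are on the plus strand of chromosome 11, miR-216b-5p at chr11:28746204-28746225, miR-216a-5p at chr11:28757018-28757039 and miR-217-5p at chr11:28763761-28763783. No 2 of the 3 share a whole seed.

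The other immune cell miRNAs named above are shown because they were summed with miR-150-5p into a lymphoid list. Their seeds differ from one another.
mmu-miR-142a-3p: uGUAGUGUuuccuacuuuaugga
mmu-miR-155-5p: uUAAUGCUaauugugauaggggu
mmu-miR-342-3p: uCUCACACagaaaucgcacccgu
mmu-miR-146a-5p: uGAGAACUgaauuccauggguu
The epithelial miRNAs fall into families by seed, and they are shown because their summed level is compared with that of the acinar miRNAs. miR-200b, miR-200c and miR-429 share AAUACUG, miR-200a and miR-141 share AACACUG, and miR-192 and miR-215 share UGACCUA.
mmu-miR-200b-3p: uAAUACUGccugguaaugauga
mmu-miR-200c-3p: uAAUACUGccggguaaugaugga
mmu-miR-429-3p: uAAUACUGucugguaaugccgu
mmu-miR-200a-3p: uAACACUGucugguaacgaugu
mmu-miR-141-3p: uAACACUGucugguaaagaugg
mmu-miR-192-5p: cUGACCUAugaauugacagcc
mmu-miR-215-5p: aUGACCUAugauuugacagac

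Reads were counted on lncRNA, piRNA, snoRNA, snRNA, rRNA, tRNA and miRNA features, 7 classes in all. The libraries held 14.2 to 113 M such counts (median 59.9 M), of which 0.772 to 4.89 M were on miRNAs (median 1.95 M). At least 5 reads fell on 442 to 656 miRNAs. Unless stated otherwise, a level is the count per 1000000 (1 M) miRNA counts of its library.

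Several libraries did not look like fat. Each library's profile over 525 miRNAs was correlated with each tissue's median profile in the series. Of the 28 libraries, 17 correlated best with pancreas, 6 with mesenteric fat, 3 with gonadal fat (GAT), 1 with spleen and 1 with kidney. The library labelled HGC 13 had r = 0.948 with kidney and 0.158 with mesenteric fat, and the library labelled FL 3 had r = 0.948 with pancreas and 0.507 with mesenteric fat. Both lie in sequencing pools that were left out in a repeat of every comparison. Those pools hold 5 of the 28 libraries, FL 3, FL 11, FL 13, HGC 13 and HGC 14, and 6 FL, 8 HGC and 9 VGC libraries remain. Among those 5, the single most similar library of the series was a brown fat library for HGC 14 (r = 0.935), a kidney library for FL 13 (r = 0.846) and a pancreas library for FL 11 (r = 0.809). The library closest to spleen was FL 5 (r = 0.706). It is not in those pools, and its single most similar library was mesenteric fat of a vivarium mouse of the other collection (r = 0.912). HGC 11 is not in those pools either, and its r was 0.696 with gonadal fat and 0.185 with mesenteric fat. For FL 2, FL 4, HGC 3 and HGC 12, also outside those pools, the most similar library was the diaphragm of flight mouse 13 (r from 0.928 to 0.947). In a non-negative least squares fit of each library by the median profiles of the other tissues, the weight on pancreas had a median of 41.1% and ran from 0% to 100% (FL 3), and the summed weight on the white and brown fat depots had a median of 24.2%. Kidney took 97.2% in HGC 13 and spleen 62.5% in FL 5. These weights are estimates that depend on the reference medians.

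The acinar miRNAs were within the range of pancreas libraries in most mesenteric fat libraries and far lower in the others. miR-217-5p had its lowest, median and highest level at 22.6 (FL 16), 3342 and 18340 (FL 3) in FL, at 0.953 (HGC 13), 4234 and 10398 (HGC 12) in HGC, and at 17.3 (VGC 12), 6118 and 12451 (VGC 11) in VGC. The ranges of the 3 arms overlapped, and the lowest value came from HGC 13, the library closest to kidney. In the pancreas libraries of the same collection the median was 13646, whereas it was 3.47 in gonadal fat and 2.16 in subcutaneous fat (SCAT), although the highest gonadal fat library reached 16550. In mesenteric fat of the other collection the median was 29.2. miR-216a-5p ran from 1.91 in HGC 13 to 24644 in FL 2, with medians of 3031 in FL, 5105 in HGC and 8497 in VGC. It had the widest spread within arms of the 204 miRNAs with a mean level of at least 100, an SD of 4.58 on the log2 scale against a median SD of 0.885.

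The 6 exocrine miRNAs (both arms of miR-216a, miR-216b and miR-217) were summed per library. The sum was under 1000 in 8 libraries, FL 5, FL 14, FL 16, HGC 11, HGC 13, HGC 16, VGC 1 and VGC 12, and at least 3454 in the other 20. No library lay between 465 (HGC 16) and 3454 (HGC 1), a gap of 7.43-fold. The sum was above 10000 in 4 of 9 FL, 5 of 10 HGC and 7 of 9 VGC libraries, and under 1000 in 3 FL, 3 HGC and 2 VGC libraries. At its highest, in FL 3, it was 3.87% of all miRNA counts, followed by 3.73% in FL 2. Within the 20 libraries of the upper set, miR-216a-5p made up a median of 51.1% of the sum and miR-217-5p 37.0%. Without the 5 libraries of the pools left out, the sum still ran from 44.3 to 37270 in FL, from 12.6 to 29799 in HGC and from 32.0 to 30368 in VGC.

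**Figure D1:**
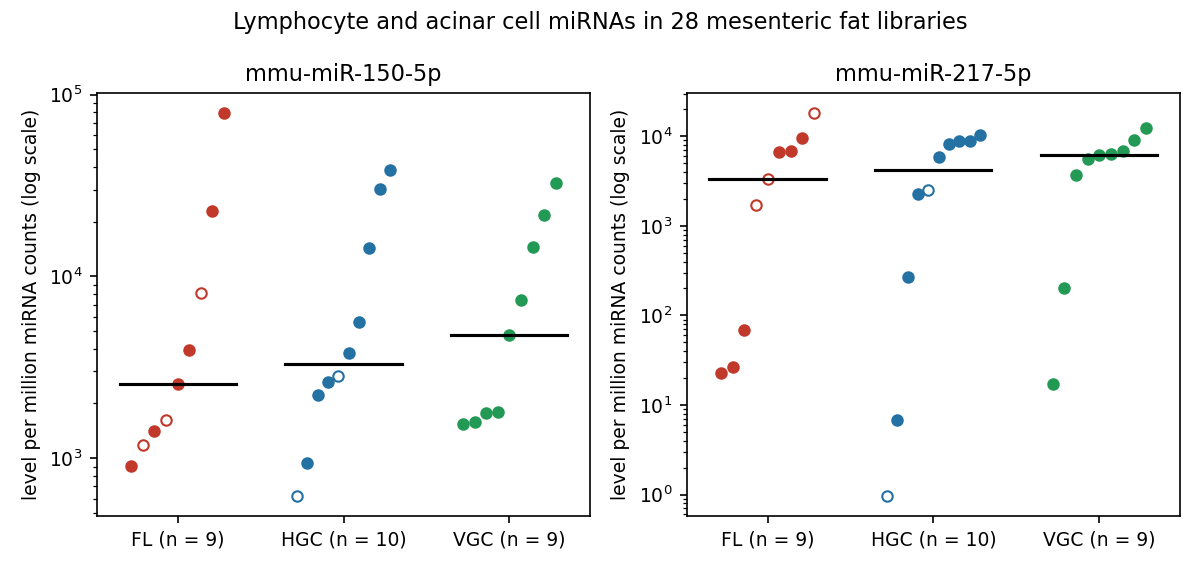
Level of miR-150-5p (left) and miR-217-5p (right) per 1000000 miRNA counts, on a log axis, in each library of the FL, HGC and VGC arms, with 1 point per mouse ordered by value, the arm's median as a line and open points for libraries of the pools left out. The arms overlap, with miR-150-5p from 909 to 79572 in FL, 616 to 38518 in HGC and 1534 to 32856 in VGC, and miR-217-5p from 22.6 to 18340, 0.953 to 10398 and 17.3 to 12451.

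miR-150-5p also varied within each arm. Its lowest, median and highest levels were 909 (FL 4), 2554 and 79572 (FL 5) in FL, 616 (HGC 13), 3304 and 38518 (HGC 16) in HGC, and 1534 (VGC 2), 4788 and 32856 (VGC 1) in VGC. It was above 10000 in 8 libraries, namely FL 5, FL 14, HGC 1, HGC 5, HGC 16, VGC 1, VGC 11 and VGC 12. The highest value, in FL 5, was above the spleen median of 45150 and made miR-150-5p the most abundant miRNA of that library, at 7.96% of miRNA counts. miR-155-5p, which is induced in activated lymphocytes and macrophages, was highest in FL 5 (5677), HGC 16 (2975) and HGC 1 (2464), against a median of 467. miR-146a-5p, a miRNA that restrains inflammatory signalling, was highest in FL 5 (16951) and HGC 16 (14915). FL 14 and VGC 12 went another way, with miR-150-5p at 23017 and 21684 but miR-142a-3p at 494 and 770, below its median of 1275 over the 28 libraries.

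The 8 members of the lymphoid list summed to 2575 (FL 3) to 120947 (FL 5) with a median of 7514, and the list took 12.1% of miRNA counts in FL 5 against 0.258% in FL 3. In HGC 16 it took 6.75%, in VGC 1 4.28% and in HGC 1 4.12%. The 3 thymus cluster miRNAs (miR-20b-5p, miR-106a-5p and miR-363-3p), made from a cluster on the X chromosome that is active in thymocytes, were highest in FL 11 (1024), FL 13 (965), FL 5 (895) and HGC 16 (654), against medians of 86.1 in FL, 122 in HGC and 110 in VGC. FL 11 and FL 13 are in the pools left out.

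The same mice allow a description by depot. The absolute deviation of each library from its arm's median on the log2 scale was averaged over mice. For miR-150-5p it was 1.54 in mesenteric fat and 0.843 in gonadal fat of 28 mice, and larger in mesenteric fat in 18 of 28. Against subcutaneous fat it was 1.59 and 0.772 in 27 mice (larger in 18 of 27). For miR-217-5p the deviation was 2.62 against 1.31 in gonadal fat (larger in 19 of 28 mice) and 2.67 against 1.51 in subcutaneous fat (larger in 17 of 27). Without the pools left out, the difference was 0.54 for miR-150-5p from subcutaneous fat and 1.25 for miR-217-5p from gonadal fat. The spread of miR-217-5p was not particular to mesenteric fat. Its SD within arms on the log2 scale was 3.90 in mesenteric fat, 3.47 in brown fat and 4.29 in diaphragm, and its median level in brown fat and diaphragm was 1.93 and 1.64. No test is given, since both miRNAs were chosen with their spread in these libraries known.

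**Figure D2:**
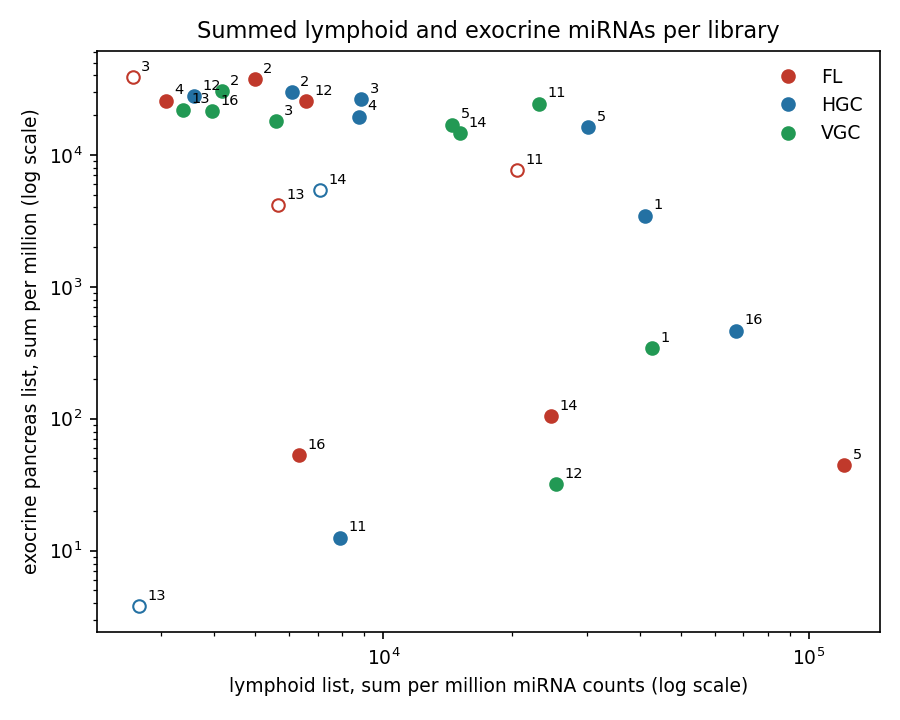
Sum of the 6 exocrine pancreas miRNAs (y) against the sum of the 8 lymphoid miRNAs (x), both per 1000000 miRNA counts on log axes, with 1 point per library, coloured by arm, numbered by mouse and open for the pools left out. The 20 libraries at or above 3454 form a band at the top, and the 8 at or below 465 lie apart with members of all 3 arms.

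Over all 28 libraries the lymphoid and exocrine sums had Pearson's r = -0.342 and Spearman's rho = -0.515, and r = -0.195 without the 2 libraries farthest from the lymphoid median. By arm, r was -0.698 in FL (n = 9, rho = -0.800), 0.142 in HGC (n = 10, rho = -0.139) and -0.649 in VGC (n = 9, rho = -0.650). Without the 2 farthest libraries of the arm it was -0.276, 0.393 and -0.633. The sign of r in HGC was opposite to the other arms, and this difference was not tested. Each of these values mixes the 2 sets of exocrine level, so the relations were also computed within each set, a split made after the levels were seen. Among the 20 libraries of the upper set, the exocrine and lymphoid sums had r = -0.513 and rho = -0.614. Without the 2 libraries farthest from the lymphoid median r was -0.359, and on the rpmm scale (counts per total of the 7 classes) it was -0.356. Among the 8 libraries of the lower set r was 0.713 and rho 0.571, opposite in sign. In the upper set the exocrine sum had r = 0.918 and rho = 0.716 with the epithelial list (r = 0.852 without the 2 farthest libraries) and r = 0.749 and rho = 0.540 with the islet list (r = 0.576 without them). In the lower set the islet list gave r = 0.755 and rho = 0.810 (r = 0.420 without the 2 farthest), and the epithelial list r = -0.456 and rho = -0.119. No p-value is given for these sums, whose members were chosen with results known. All lists are shares of the same miRNA total, so their levels are not independent of each other. Within batches these relations were not computed, because the 28 libraries are spread over 24 pools and 8 plates.

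Among the islet and epithelial miRNAs, miR-375-3p ran from 113 in HGC 11 to 100214 in FL 3, where it was the most abundant miRNA with 10.0% of miRNA counts, and its medians were 18125 in FL, 10352 in HGC and 41286 in VGC. miR-200c-3p ran from 398 in HGC 11 to 44487 in FL 3. The 10 miRNAs with the widest spread within arms held 4 of the exocrine list, miR-141-3p and miR-215-5p of the epithelial list, both arms of miR-802, miR-6969-3p and miR-153-3p. miR-802-5p, which is made in pancreas, liver and other epithelium, ran from 7.33 (VGC 12) to 20407 (HGC 2).
mmu-miR-802-5p: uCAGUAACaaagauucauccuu

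Other organs stood out in single libraries. In HGC 13 the Hox locus list (miR-10a, miR-10b, miR-196a, miR-196b and miR-615, made from the Hox gene clusters of posterior tissues) summed to 24511, against a median of 2518 in HGC and 21650 in kidney. miR-192-5p, which is abundant in kidney and gut, was 23153 there against 554 to 14017 in the other 27 libraries. In HGC 11 the liver miRNA miR-122-5p was 9567, and the next highest was FL 13 at 1044. The striated muscle list (miR-1a, miR-133a, miR-133b, miR-206, miR-208a, miR-208b and miR-499) summed to 64025 in HGC 14, 21688 in HGC 11, 16572 in FL 13 and 10969 in FL 11, and to at most 5113 elsewhere. The adipocyte list (7 miRNAs, led by miR-378a-3p) ran from 25158 to 292024 in FL 14, where miR-378a-3p alone took 25.3% of miRNA counts. HGC 1 was next with 169339.

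**Figure D3:**
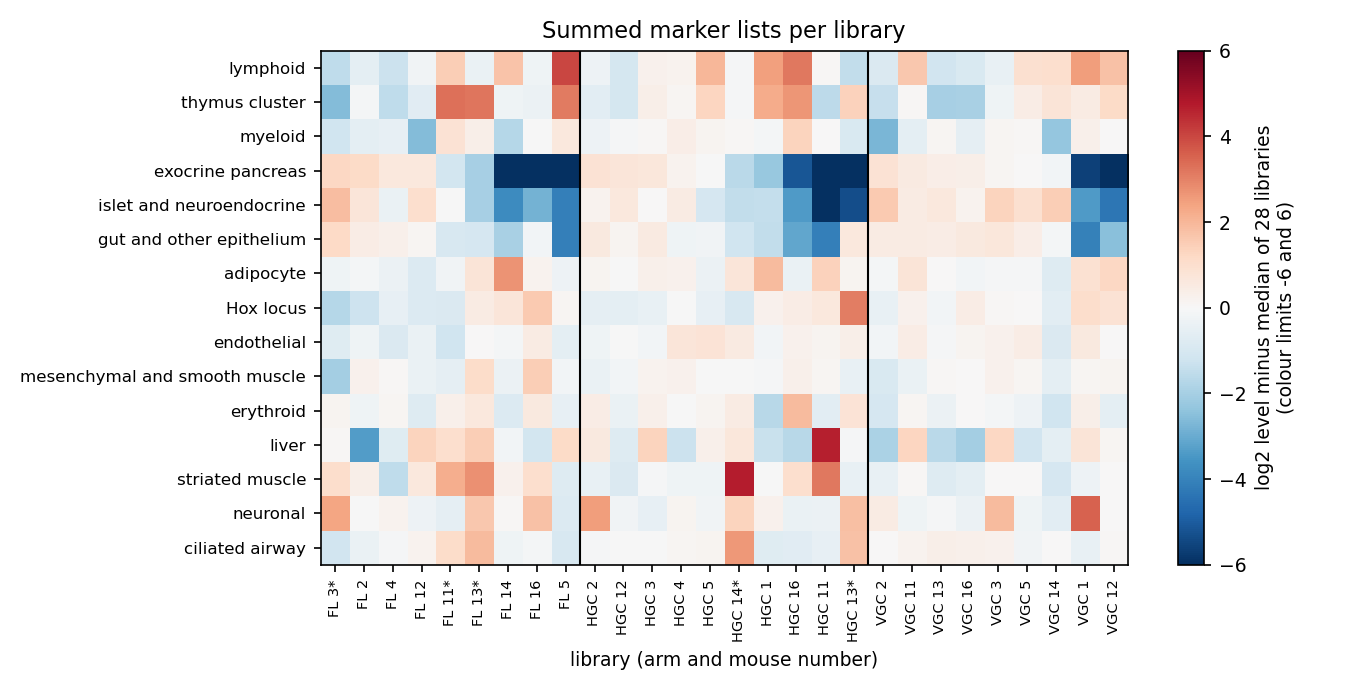
Each of 15 summed marker lists (rows) in each of the 28 libraries (columns, by arm and then by falling exocrine sum, with a star for the pools left out), as the log2 level minus its median over the libraries, with colours clipped at -6 and 6. Low exocrine, islet and epithelial levels coincide in most of the 8 lower libraries of all 3 arms, while HGC 13, HGC 11 and HGC 14 stand out in the Hox, liver and striated muscle rows.

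No miRNA passed an adjusted p under 0.05 between spaceflight and either control. edgeR's quasi-likelihood test with Benjamini-Hochberg adjustment called 0 of 883 miRNAs (0%) in FL against HGC and 0 in FL against VGC. At an unadjusted p under 0.05 there were 51 (21 higher and 30 lower in FL) and 69 (57 higher and 12 lower), 5.78% and 7.81% of those tested. DESeq2 called 0 in both, as did a Wilcoxon rank-sum test on rpmm (counts per 1000000 counts over the 7 classes), with 45 and 74 and with 9 and 23 miRNAs at an unadjusted p under 0.05. Without the pools left out the edgeR counts were also 0 in both. With the plate as a term they were 0 in both, and so they were with age as a term.

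In the lymphoid list 0 of 8 members passed in either comparison. miR-150-5p had a log2 fold change of 0.41 ± 0.81 (SE) in FL against HGC (adjusted p = 0.982) and 0.68 ± 0.83 against VGC (adjusted p = 0.844). In the repeat without the 5 libraries of the left-out pools it was 0.56 ± 0.91 against HGC (adjusted p = 1) and 1.08 ± 0.88 against VGC (adjusted p = 0.874). Over all 28 libraries the medians of miR-150-5p were 2554 in FL, 3304 in HGC and 4788 in VGC, opposite in direction to the fold changes. Its highest FL levels were 79572 in FL 5 and 23017 in FL 14, which both stayed in the repeat. The list's median log2 fold change was 0.19 against HGC and 0.90 against VGC, where the medians of all 883 miRNAs were 0.00 and 0.16. The summed list had medians of 6347 in FL, 8352 in HGC and 14517 in VGC, opposite in direction to these fold changes. Its highest FL libraries were FL 5 (120947) and FL 14 (24712). miR-155-5p was 0.20 ± 0.63 and 1.00 ± 0.66 (adjusted p = 0.994 and 0.718). The 3 thymus cluster miRNAs had a median of 1.93 in FL against VGC, with an unadjusted p under 0.05 in 3 of 3 and the lowest adjusted p at 0.527. Here miR-20b-5p was 1.93 ± 0.71. Its levels were highest in FL 11, FL 5 and FL 13 (607, 575 and 533), of which FL 11 and FL 13 lie in the pools left out, and at most 127 in the 9 VGC libraries. Its median was 55.4 in FL and 68.0 in VGC, opposite in direction to the fold change, which rests on those 3 libraries. Without those pools its log2 fold change was 1.14 ± 0.70 (adjusted p = 0.874).

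In the exocrine list 0 of 6 members passed, with medians of 0.33 and 0.05. miR-217-5p was 0.31 ± 1.05 against HGC (adjusted p = 0.994) and 0.13 ± 1.08 against VGC (adjusted p = 0.985), and miR-216a-5p was 0.63 ± 1.20 and 0.20 ± 1.24 (adjusted p = 0.982 and 0.984). These standard errors are over 1 on the log2 scale. Without the pools left out the sign of miR-217-5p turned in both, to -0.21 ± 1.20 against HGC (adjusted p = 1) and -0.18 ± 1.17 against VGC (adjusted p = 0.979). None of 3 islet miRNAs, 8 epithelial miRNAs and 7 adipocyte miRNAs passed either. miR-107-3p, of the miR-103/107 pair that acts on insulin signalling in fat, was -0.61 ± 0.29 against HGC (p = 0.0445, adjusted p = 0.797) and 0.30 ± 0.30 against VGC. The endothelial miR-126a-3p was -0.62 ± 0.25 against HGC (p = 0.0176, adjusted p = 0.566) and -0.28 ± 0.25 against VGC. Without the pools left out it was -0.38 ± 0.28 against HGC (adjusted p = 1). The other strand, miR-126a-5p, was -0.03 ± 0.31 against HGC (adjusted p = 0.997), and 0.27 ± 0.33 without those pools (adjusted p = 1), opposite in sign to miR-126a-3p. The remaining lists (myeloid, Hox locus, mesenchymal and smooth muscle, erythroid, liver, striated muscle, neuronal and ciliated airway) had 0 members past the threshold in both comparisons. Among them, an unadjusted p under 0.05 against HGC was found for miR-199a-5p (-0.64 ± 0.28, adjusted p = 0.649), miR-34c-5p (-1.50 ± 0.60, adjusted p = 0.566) and miR-208a-3p (adjusted p = 0.765). Without the pools left out miR-34c-5p was -0.37 ± 0.41 (adjusted p = 1), miR-208a-3p -1.06 ± 1.04 and miR-199a-5p -0.70 ± 0.34. Against VGC an unadjusted p under 0.05 was found for miR-486a-5p of the erythroid list (adjusted p = 0.598) and for miR-1a-3p, miR-133b-3p and miR-206-3p of the striated muscle list (adjusted p from 0.526 to 0.598). Without those pools miR-1a-3p was 0.71 ± 0.60 (adjusted p = 0.874), miR-133b-3p 0.46 ± 0.51 (adjusted p = 0.879) and miR-486a-5p 1.90 ± 0.77 (adjusted p = 0.874).

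**Figure D4:**
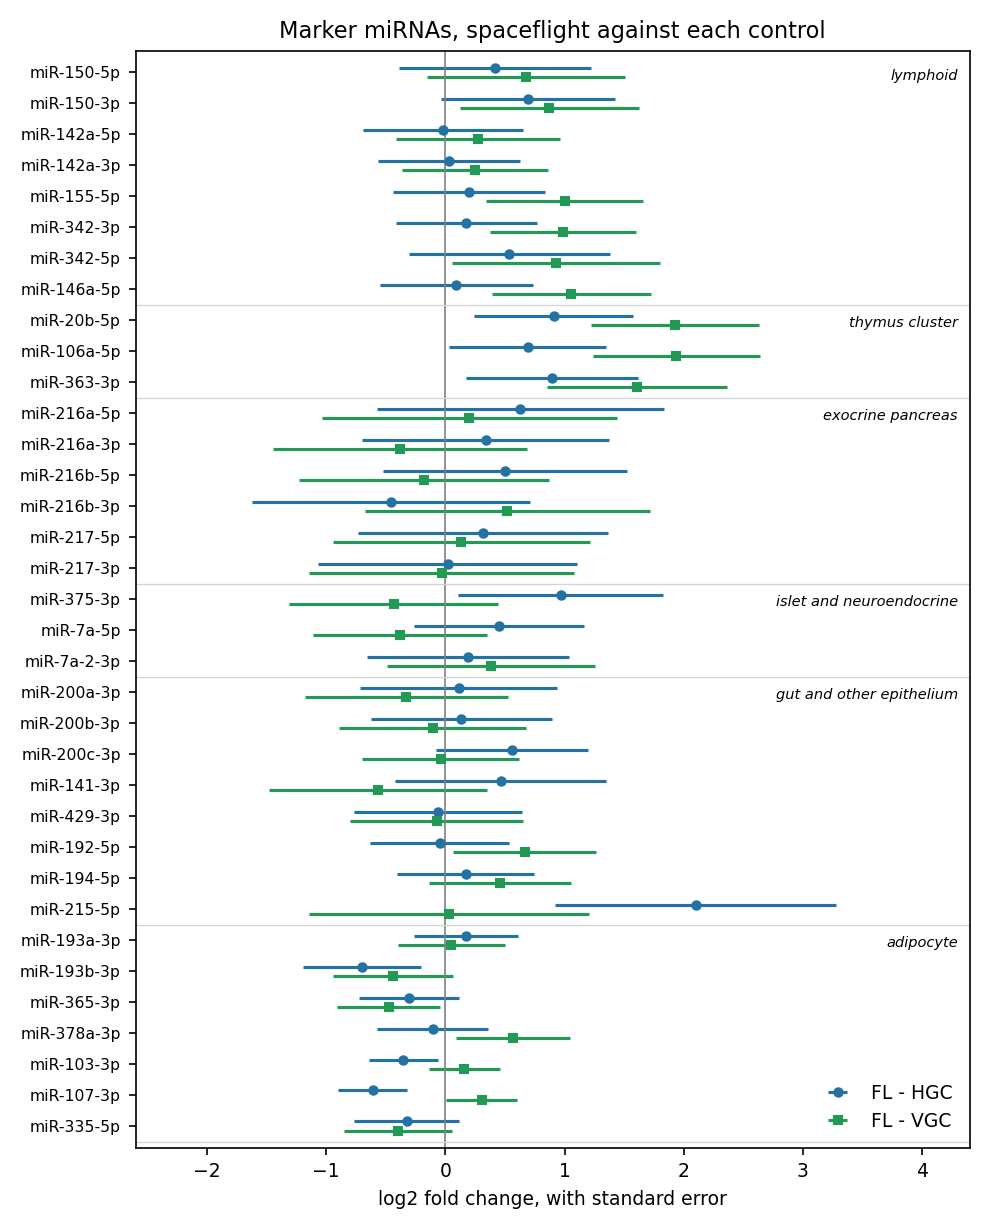
Log2 fold change of FL against HGC (circles) and against VGC (squares) with the standard error of the edgeR fit, for the members of 6 marker lists. The standard errors against HGC reach 1.20 for the exocrine miR-216a-5p and 1.18 for the epithelial miR-215-5p, and no member passed an adjusted p under 0.05.

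The 5 smallest p-values in FL against HGC belonged to miR-7051-3p, miR-293-3p, miR-2137, miR-92a-2-5p and miR-3473a (adjusted p = 0.365 to 0.531). Of these, miR-7051-3p, miR-293-3p and miR-92a-2-5p were at 0 in 8, 7 and 5 of 9 FL libraries. miR-7051-3p was at 0 in 1 of 10 HGC libraries, with a highest level of 1.72. miR-293-3p, of a cluster active in embryonic stem cells, was seen only in FL 11 (2.66), FL 13 (2.09) and VGC 12 (0.293). miR-92a-2-5p was 5.52 in FL 11, 4.79 in FL 5 and 3.93 in FL 13, and at most 1.47 in the other 25 libraries. miR-2137 was 6152 in HGC 16 and at most 186 in the other 27 libraries, and miR-3473a was 1464 in HGC 16 and at most 91.1 elsewhere. Without HGC 16 the log2 fold change of miR-2137 went from -3.88 to 0.38 and that of miR-3473a from -2.41 to 0.25, so 1 library set both directions.

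In FL against VGC they were miR-669d-2-3p, miR-669l-3p, miR-106a-3p, miR-205-5p and miR-206-3p, each with an adjusted p of 0.526. miR-205-5p, a miRNA of squamous and glandular epithelium, was 4176 in FL 11, 3307 in FL 13 and 685 in FL 16, and at most 109 in the other FL libraries. In VGC it was 662 in VGC 12 and at most 125 elsewhere. miR-206-3p, which is specific to skeletal muscle, had a log2 fold change of 3.46 ± 1.11.
mmu-miR-206-3p: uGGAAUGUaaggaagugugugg
It was 1609 in FL 13 and 790 in FL 11 and at most 67.9 in the other 7 FL libraries, against 11.5 to 53.9 in VGC. Without the pools left out, which hold both libraries, the log2 fold change was 0.49 ± 0.87 (edgeR adjusted p = 0.900). Against HGC it was -3.42 ± 1.03 without those pools (adjusted p = 1) and -1.12 ± 1.00 with them. Among the HGC libraries kept, HGC 11 was at 2569 and the others at most 154. The medians without those pools were 35.1 in FL and 37.9 in HGC, so the value of -3.42 leans on HGC 11.

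A size rule was adapted from the study's thresholds, a log2 ratio of geometric medians beyond 1 with Cohen's d beyond 0.5. Here 1 was added to each rpmm value, which shrinks the ratio of low miRNAs. By this rule 1 miRNA passed in FL against HGC (0.113% of 883) and 4 in FL against VGC (0.453%). The first was miR-215-5p, with a log2 ratio of 1.67 and medians of 3.76 rpmm in FL and 0.494 in HGC. Its range was 0.0245 to 172 in FL and 0.0664 to 54.0 in HGC, so the arms overlapped (edgeR adjusted p = 0.981). The 4 others were miR-133a-3p (1.32), miR-148a-3p (-1.35), miR-6969-3p (-1.88) and miR-96-5p (-1.13), with edgeR adjusted p from 0.619 to 0.984. miR-148a-3p, which is abundant in pancreas, liver and B cells, had medians of 253 rpmm in FL, 247 in HGC and 646 in VGC.
mmu-miR-148a-3p: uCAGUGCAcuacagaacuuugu
These counts depend on single libraries and on the scale. Leaving out 1 library gave 0 to 8 against HGC (8 without HGC 1) and 0 to 10 against VGC (0 without FL 14, 10 without FL 2 or FL 3). Scaled to miRNA counts alone 16 and 40 miRNAs passed, with TMM scaling 12 and 23, and without the pools left out 6 and 17.

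The controls, which differ in housing, were compared too. HGC against VGC gave 0 of 883 calls (0%), with 97 miRNAs at an unadjusted p under 0.05 and 3 calls by DESeq2. The 5 smallest p-values were those of miR-3082-5p, miR-2137, miR-3473a, miR-206-3p and miR-489-3p, with adjusted p from 0.0758 to 0.0764. Without HGC 16 the log2 fold change of miR-2137 went from 5.45 to 1.03 (adjusted p = 0.706) and that of miR-3473a from 3.16 to 0.40 (adjusted p = 0.840). miR-206-3p was 2569 in HGC 11 and 2329 in HGC 14 and at most 154 in the other HGC libraries. Without HGC 11 there were 5 calls, and without HGC 5 there were 2.

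The change with flight was compared between mice of 8 and 3 months (FL against HGC). No miRNA passed the test of this interaction (0 of 883, 0%, with 54 at an unadjusted p under 0.05 and 0 calls by DESeq2). Its 5 smallest p-values were those of miR-7000-3p, miR-3473a, miR-2137, miR-129-1-3p and miR-6538, with adjusted p from 0.221 to 0.599. Without HGC 16 the interaction of miR-2137 went from -6.48 to -0.63 and that of miR-3473a from -4.33 to -0.60. miR-6538 was 271 in HGC 16 and at most 10.5 elsewhere. Of the miR-200 family, miR-429-3p had an interaction of 2.48 ± 1.44 (adjusted p = 0.864) and miR-200c-3p one of 1.15 ± 1.30 (adjusted p = 0.923). The highest miR-429-3p levels were 18604 in HGC 13, of 3 months, and 11657 in FL 3, of 8 months. Both lie in the direction of its interaction. These libraries are in the pools left out, and the values of this paragraph include them. Libraries with an exocrine sum under 1000 made up 2 of 4 FL mice of 3 months and 1 of 5 FL mice of 8 months. In HGC they made up 1 of 5 mice of 3 months (HGC 13) and 2 of 5 mice of 8 months. The median epithelial sum in these groups was 15370, 44682, 35128 and 34454, and the median exocrine sum 2128, 25355, 5387 and 19446. The part of the exocrine level in the epithelial values was not tested.

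The share of each RNA class differed widely between libraries. tRNA fragments took 8.23% to 76.4% of the counts of the 7 classes with a median of 34.1%, and rRNA fragments 5.54% to 54.2% with a median of 29.5%. Some tRNA, rRNA and snRNA gene copies had identical counts, so a read may enter these totals more than once. miRNAs took 1.33% to 7.92%. miRNAs were 4.72% ± 2.30 (SD, n = 9) in FL, 3.92% ± 2.06 (SD, n = 10) in HGC and 4.36% ± 1.20 (SD, n = 9) in VGC. tRNA was 36.7% ± 24.3 in FL, 37.9% ± 19.5 in HGC and 31.8% ± 14.8 in VGC. In an exact 2-sided permutation test of the difference of means, none of the 14 comparisons passed, with raw p from 0.43 to 0.945 and an adjusted p of 0.945 throughout.

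**Figure D5:**
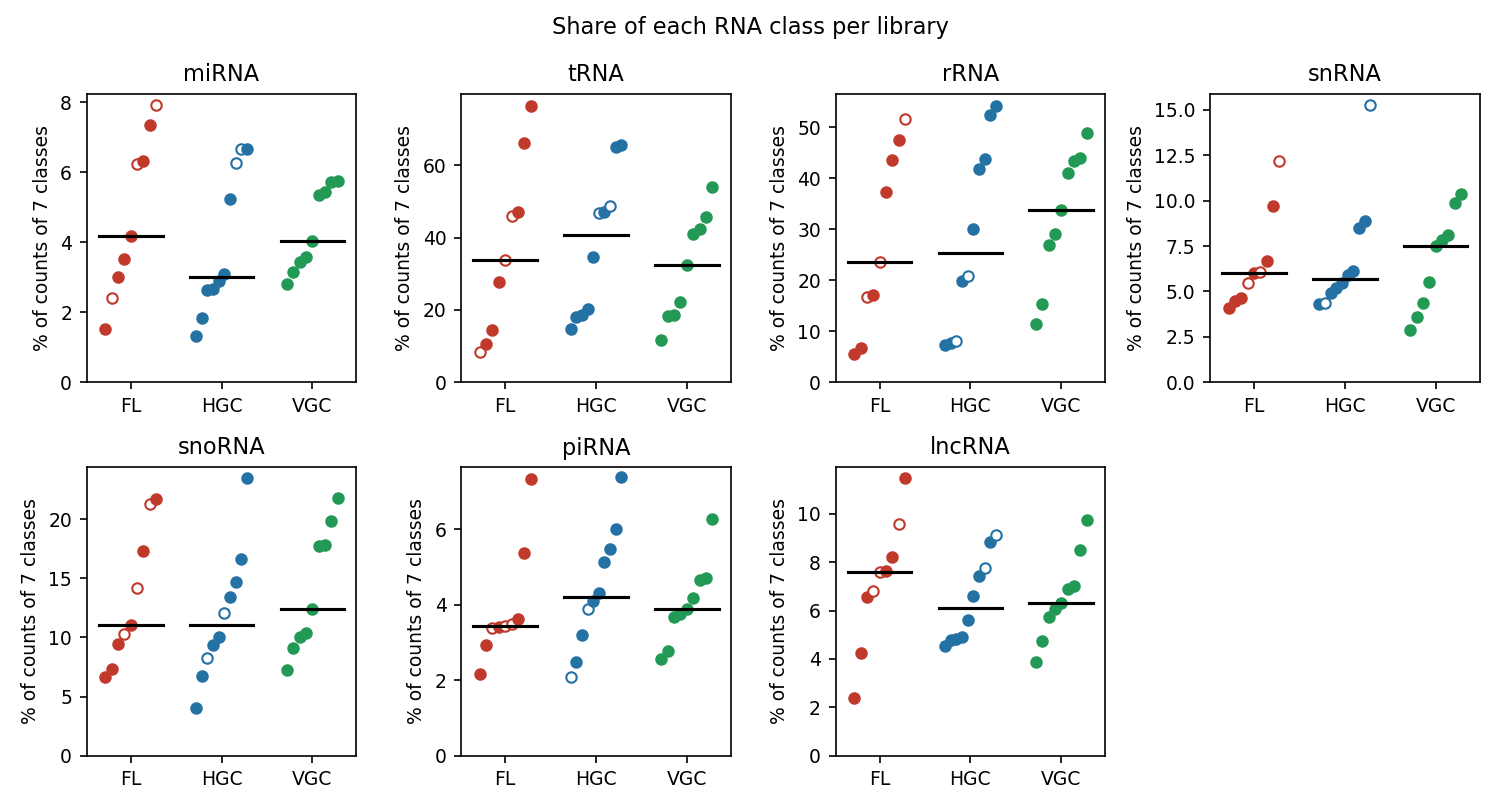
Share of 7 RNA classes in each library (percent of the counts of the 7 classes, y axes from 0) by arm, with 1 point per mouse, the median as a line and open points for the pools left out. tRNA runs from 8.23% to 76.4% and the 3 arms overlap in every class.

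tRNA fragments arise from cleavage of mature tRNAs, often under stress. edgeR called 0 of 407 tRNA genes (0%) in both comparisons. In FL against HGC 92 (22.6%) had an unadjusted p under 0.05 (47 higher, 45 lower), in FL against VGC 3. Gene copies with identical counts each enter these numbers. By DESeq2 there were 0 calls, with 37 and 14 at an unadjusted p under 0.05. The 3 smallest p-values in FL against HGC were those of tRNA-His-GTG-2-1, 2-2 and 2-3, copies with identical counts whose log2 fold change was -1.23 ± 0.37 (p = 0.00193, adjusted p = 0.0981). Their medians were 127 per 1000000 counts of the 7 classes in FL and 213 in HGC, and their ranges overlapped (80.0 to 239 and 60.0 to 1417). The value of 1417 was in HGC 16. Without HGC 1, or without HGC 14, 9 tRNA genes passed, all lower in FL. The most abundant were the copies of tRNA-Glu-CTC-1, each with a median of 4.96% of tRNA counts and a log2 fold change of -0.07 ± 0.50 against HGC.

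Of 226 rRNA features edgeR called 0 (0%) in both comparisons, with 32 at an unadjusted p under 0.05 in FL against HGC (all higher in FL) and 2 in FL against VGC. The direction against HGC was not stable. With DESeq2's size factors in place of TMM in the same edgeR test, 51 features had an unadjusted p under 0.05, 2 higher and 49 lower, with 0 calls, and without the pools left out 49 did, 10 higher and 39 lower. With the total of the 7 classes as library size 55 features passed, all higher in FL, and by the Wilcoxon test on rpmm 27 passed, all higher. By DESeq2 48 passed, 1 higher and 47 lower, and with miR-150-5p and miR-217-5p as terms 72 passed, 34 higher and 38 lower. The smallest p-values were those of the 5S rRNA copies n-R5s156, n-R5s77 and n-R5s167, near-identical genes that can share reads. Other 5S copies, Rn5s and n-R5s108, had identical values, so numbers of features need not stand for separate reads. n-R5s156 had medians of 132 per 1000000 counts of the 7 classes in FL, 54.6 in HGC and 95.2 in VGC, with ranges of 49.1 to 256, 28.6 to 94.7 and 64.7 to 323. The median of FL was above the highest HGC library, although the arms overlapped, and lay within the range of VGC. Its log2 fold change was 0.64 ± 0.24 against HGC (adjusted p = 0.224).

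The other classes gave 0 calls (0%) in both comparisons. For snRNA, the RNAs of the spliceosome, 801 features were tested with 25 and 33 at an unadjusted p under 0.05 in FL against HGC and against VGC, and for snoRNA, the guides of rRNA modification, 828 with 29 and 9. Snord85, with 2 transcripts of equal counts, had the smallest snoRNA p against HGC, a log2 fold change of -0.87 ± 0.26 (p = 0.00214, adjusted p = 0.888) and medians of 264 in FL, 645 in HGC and 406 in VGC per 1000000 counts of the 7 classes. For piRNA, RNAs annotated mostly from germ cells that in somatic tissue can be fragments of other RNAs, 835 were tested with 68 and 62. The smallest p there, piR-26052 (adjusted p = 0.0948 against HGC), was at 0 in 7 of 9 FL libraries and in all 10 HGC libraries. Next was oocyte_piRNA750, at -2.48 ± 0.62 (adjusted p = 0.0948). Its highest level was 273 in HGC (in HGC 16) and 10.8 in FL, where the medians were 4.90 and 4.38. For lncRNA 3717 features were tested with 251 and 203. The most abundant was Snhg1, a snoRNA host gene, with a median of 10.0% of lncRNA counts and a log2 fold change of -0.40 ± 0.76 against HGC. DESeq2 called 0 features in these 4 classes in both comparisons, and leaving out the pools gave 0 calls by edgeR in each of the 7 classes.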

How the data were processed

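Small RNA libraries of 28 mesenteric fat samples were analysed. The authors mapped reads with miRMaster to GRCm39 and deposited raw counts per feature. The deposited miRNA values are estimated counts, of which 0.771% are fractional here, and were rounded; the other 6 deposited tables hold whole-number counts. Groups came from the labels, and sequencing pools and plates from the study's sample table. Members and marker lists were chosen with earlier results of these data known.

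Features with at least 5 counts in at least 10% of the libraries of an arm were tested with edgeR 4.0.16 (quasi-likelihood, TMM factors within the class, Benjamini-Hochberg adjusted p under 0.05). DESeq2 1.42.0, a Wilcoxon test, other scalings and filters, terms for age, plate and markers, and leaving out libraries or pools were alternatives. The size rule took the study's thresholds, with 1 added to rpmm here. Permutation tests used 100000 resamples in scipy 1.17.1, or all of them. The relation of lymphoid and exocrine levels was planned over all 28 libraries and within arms; as the exocrine sum fell into 2 sets, it is given within these too. The planned p-values for this relation and for the spread between depots are not given, because the miRNAs were chosen with those patterns known. Tested on simulated data, the edgeR step recovered 89.8% (lncRNA) to 100% (tRNA) of changed features. Recovery of features that vary as widely as the exocrine miRNAs did here was not tested. Named miRNAs were all list members, the 5 smallest p-values per comparison, those past the size rule and the 10 of widest spread; in other classes, named features came from the 3 smallest p-values per comparison and the 3 most abundant. Each library is 1 mouse. RefSeq gave sequences for 58 of 72 listed miRNAs.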

Additional observations from a re-analysis of the deposited data

Results flagged for a closer look

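Within each arm, the highest and lowest library of each marker list, of miR-150-5p and miR-217-5p and of each class share were compared with their neighbours by Dixon's 95% critical value. Of 72 groups, 4 held a library that stood apart, where chance gives about 1 in 20. The adipocyte list in FL 14 was 18.2 on the log2 scale, with the next FL library at 16.2. The Hox locus list in HGC 13 was 14.6, with the next HGC library at 12.2, and the same library had the highest snRNA share, 15.3% against 8.89% in the next. The liver list in HGC 11 was 13.2, with the next HGC library at 9.90. HGC 13 is in the pools left out, and FL 14 and HGC 11 are not.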

How the results depend on the processing

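Calls by edgeR were 0 in every class and comparison with the replicate block (mouse number), age or plate as a term, DESeq2 size factors, the stricter filter and without the pools. Over 26 pairs of same-number mice r ran from -0.666 to 0.614 with a median of 0.052, and over 235 other pairs the median was -0.012. This difference was not tested. The same number names another animal in each arm, so the main tests use no pairs. For rRNA in FL against HGC, DESeq2 called 48 (47 lower), the Wilcoxon test 27 (all higher), the 7-class library size 55 (all higher) and marker terms 72. Marker terms called 1 snRNA in each comparison and 1 piRNA against HGC. In that fit miR-150-5p and miR-217-5p are their own terms, so their values there say nothing. With no filter, 7 and 1 lncRNAs and 3 and 1 piRNAs passed against HGC and VGC. DESeq2 called 3 miRNAs in HGC against VGC. Leaving out 1 library gave 0 to 5 calls there (5 without HGC 11, 2 without HGC 5), 0 to 9 tRNAs against HGC (9 without HGC 1 or HGC 14) and 0 to 2 piRNAs against HGC (2 without FL 16). The size rule gave 0 with 10 rpmm added against HGC, 16 and 40 when scaled to miRNA counts, 12 and 23 with TMM, 6 and 17 without the pools, and 0 to 8 and 0 to 10 leaving out 1 library. The difference in spread of miR-217-5p from gonadal and subcutaneous fat was 1.62 and 1.77 with 10 added and 1.57 and 1.66 on rpmm. Without the pools it was 1.25 from gonadal fat, and that of miR-150-5p from subcutaneous fat 0.54. The lymphoid and exocrine relation was -0.36 on rpmm. The causes were not tested.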
